A study of Mus musculus with 2 samples.

Results

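The secretory calcium-binding phosphoproteins are a family of secreted proteins that build the matrices of enamel, dentin and bone. From the mouse array 10 of these genes were taken by symbol, of 22339 genes that could be named, and all of their probes, 13 in number, were kept. They were Amelx, Ambn, Enam, Amtn and Odam of the enamel matrix and the ameloblast surface, and Dspp, Dmp1, Ibsp, Mepe and Spp1 of dentin and bone. RNA came from tooth and from skin of wild-type mice at postnatal day 0, with 1 array per tissue, and the labels name no other allele and no agent. The labels do not give the number of animals behind each RNA. The study's methods place the collection at P1 and call the dental tissue tooth germs, and the labels were followed here. The comparison was made by the study to set the expression of a tooth beside that of skin, and here it was read for this gene family alone. With 1 array per tissue no difference has a replicate check, no test was run and no p-value is given.

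Enamel is laid down by ameloblasts, the epithelial cells that face the forming tooth surface, and dentin by odontoblasts, which arise from the dental mesenchyme beneath them. During the secretory stage ameloblasts release amelogenin, ameloblastin and enamelin, which proteases later remove as the mineral matures. Odontoblasts and osteoblasts secrete acidic phosphoproteins that bind collagen, calcium and cell-surface integrins. Genes of the family arose by tandem duplication, and most of them lie next to each other on the chromosome, together with caseins and salivary proteins of the same descent.

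Each probe was a single 60-base spot on each array. A processed signal is the spot intensity after background subtraction, in arbitrary units, and the error printed after it is the estimate that the scanner software makes for that 1 spot, not a spread between animals. A spot counted as measured when the software called it well above background. For a difference, each array was scaled to the 75th percentile of its probes, which was 428 in tooth and 276 in skin, and differences are skin minus tooth on the log2 scale. Where skin was not well above background only a lower bound of the fold is given, set against the lowest skin signal well above background, which was 20.8, or against the probe's own skin value if that was higher. Such a bound holds for this processing only. In bulk RNA, fewer cells of a type and less RNA per cell cannot be told apart. Signal was well above background for 56.7% of probes in tooth and 52.5% in skin, and repeated spots of the same probe had a scatter that gives a difference an SD of 0.11.

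The target sequences show what was measured for the members that the results turn on. They are the probes of the 3 major enamel proteins, of the repeat region of Dspp, of Spp1, and of Mepe, the gene that departs from the rest. For Ambn and Mepe the last 30 bases are shown and for the others the whole probe. Capitals mark AGTGAC, a 6-base unit that occurs 4 times in the Dspp probe and in none of the other 12.
Amelx: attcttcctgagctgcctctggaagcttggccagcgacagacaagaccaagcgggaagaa
Ambn: actggtttcatatattggatttaaaattct
Enam: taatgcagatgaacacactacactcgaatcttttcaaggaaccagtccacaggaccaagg
Dspp: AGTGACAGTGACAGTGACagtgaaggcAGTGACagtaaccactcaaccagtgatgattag
Mepe: tttaatggtggttataagaatttctactca
Spp1: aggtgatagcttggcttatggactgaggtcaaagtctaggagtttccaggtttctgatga

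In the mm9 build these probes lie at chrX:165619713-165619772 for Amelx, chr5:88897416-88897475 for Ambn, chr5:88933627-88933686 for Enam, chr5:104607570-104607629 for this Dspp probe, chr5:104767416-104767475 for Mepe and chr5:104868502-104868561 for Spp1. Of the 13 probes 12, for 9 genes, were on chromosome 5, and Amelx alone was on the X chromosome and on the minus strand. Which exon or UTR a probe matches was not analysed here. The longest run of bases that a member probe shared with a probe of any other gene, on either strand, was between 13 and 16 of its 60 bases. The GC content of the 13 probes ran from 35.0% to 55.0%.

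All 10 genes were well above background in tooth, and 8 of them in tooth only, against 7.55% of the 16440 genes measured on at least 1 array. All 10 had the higher value in tooth. In 9 of 10 the difference was at least 2-fold, against 15.7% of all genes, and in the same 9 members it was at least 16-fold, against 1.41%. With every dim value raised to its bound, 9 members still passed 16-fold, against 0.942% of all genes. With normexp background correction, run with an offset of 50 added to every spot, Amtn and Spp1 fell short of 16-fold and 7 members passed it. The median difference of the members was -9.34, or -8.04 at the bounds, and that of all genes was -0.05. None of the 13 probes was saturated or called an outlier on either array.

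**Figure D1:**
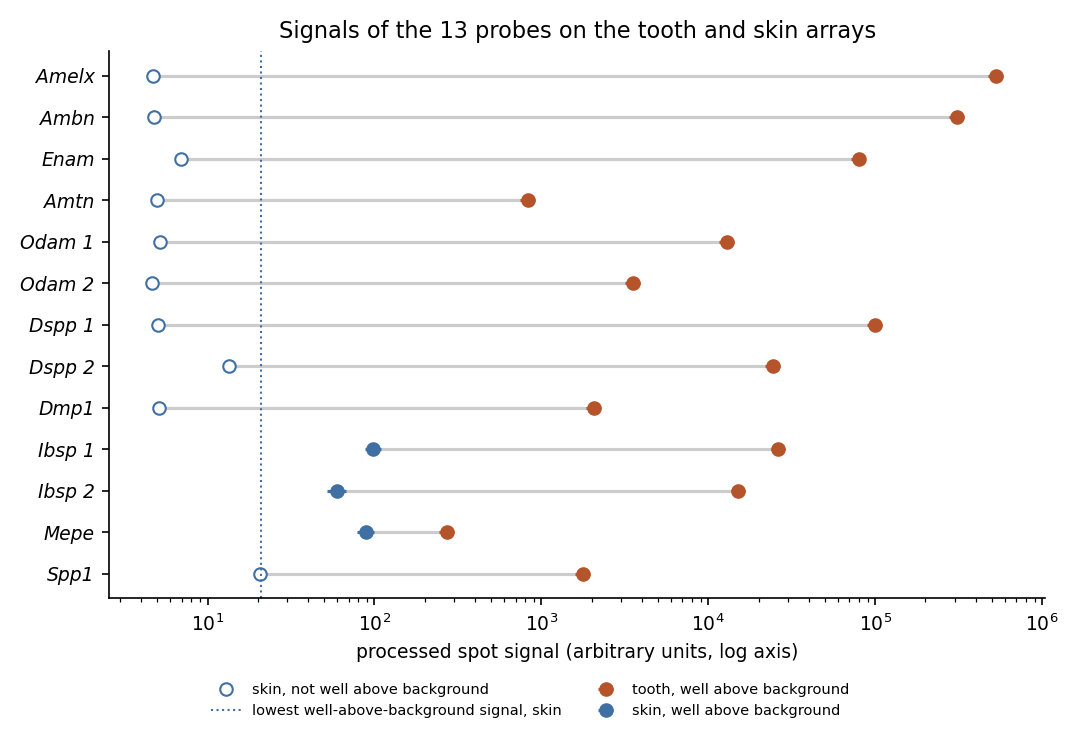
Processed signal of each of the 13 probes on the tooth array and the skin array (arbitrary units, log axis). Points are single spots with the software's error for spots well above background, open points are skin spots not well above background, and the dotted line is the lowest skin signal well above background (20.8). All 13 tooth points lie to the right of their skin points, and in skin only both Ibsp probes and the Mepe probe are filled.

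Among the enamel genes, all 5 were measured in tooth and none in skin. Amelx encodes amelogenin, the most abundant protein of forming enamel. Its signal was 527963 ± 52796 in tooth and 4.70 in skin, where the value was a surrogate that the software writes for spots at background. Tooth thus exceeded skin in Amelx by at least 16383-fold. Ambn encodes ameloblastin, which attaches ameloblasts to the enamel matrix. Its signal was 309506 ± 30951 in tooth against a surrogate of 4.76 in skin, at least 9604-fold higher in tooth. Enam encodes enamelin, the large protein found at the mineralization front of enamel. Its signal was 79481 ± 7948 in tooth and 6.96 in skin, and the skin spot was significantly above background but not well above it. The bound for Enam was 2466-fold toward tooth.

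The other enamel genes, Amtn and Odam, encode proteins of the basal lamina that mature ameloblasts lay between themselves and the enamel. The Amtn probe gave 831 ± 83.3 in tooth and a surrogate of 4.97 in skin. For Amtn, which encodes amelotin, the bound was 25.8-fold toward tooth, the smallest of the enamel genes. Its 60 bases map over 795 bases of chromosome 5 (mm9 chr5:88807126-88807920), so that 735 genomic bases between its ends are not in the probe. Odam, for odontogenic ameloblast-associated protein, had a pair of probes about 6.6 kb apart. The brighter Odam probe (mm9 chr5:88323020-88323079) gave 12956 ± 1296 in tooth and 5.17 in skin, at least 402-fold higher in tooth. The dimmer Odam probe (chr5:88316448-88316507) gave 3524 ± 352 in tooth and 4.63 in skin, at least 109-fold higher. Both skin values of Odam were surrogates, and the array assigns the brighter probe to an Ensembl transcript and the dimmer one to a RefSeq transcript.

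Among the dentin and bone genes, all 5 were measured in tooth and 2, Ibsp and Mepe, also in skin. Dspp encodes the precursor that is cut into dentin sialoprotein and phosphophoryn, the main acidic proteins of dentin, and its repeats are what the capitals above mark. The brighter Dspp probe (mm9 chr5:104609044-104609103) gave 99481 ± 9948 in tooth and a surrogate of 5.08 in skin, at least 3087-fold higher in tooth. The repeat probe of Dspp gave 24443 ± 2444 in tooth and 13.5 ± 4.79 in skin, at least 758-fold higher. Its skin spot was significantly above background without being well above it. Dmp1 encodes dentin matrix protein 1, made by odontoblasts and osteocytes. Its probe (chr5:104642918-104642977) gave 2060 ± 206 in tooth and a surrogate of 5.16 in skin, at least 63.9-fold higher in tooth. Spp1 encodes osteopontin, a protein of bone and of many other tissues that binds integrins and CD44. Its signal was 1774 ± 177 in tooth and 20.6 ± 5.68 in skin, just under the lowest skin signal well above background, and Spp1 was at least 55.0-fold higher in tooth.

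Ibsp encodes bone sialoprotein, which seeds mineral in bone and cementum. The brighter Ibsp probe (mm9 chr5:104739720-104739779) gave 26288 ± 2629 in tooth against 98.5 ± 10.8 in skin, and the difference was -7.43, with a software error of 0.21. The dimmer Ibsp probe (chr5:104740413-104740472) gave 15111 ± 1511 in tooth against 59.8 ± 7.58 in skin, and the difference was -7.35 with an error of 0.23. The log2 differences of the Ibsp probes, though not their signals, thus lay apart by less than the error of either. Both skin spots were well above background. Among the 14519 genes measured on both arrays, Ibsp had the difference ranked 5 toward tooth.

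Mepe stood apart from the other 9. It encodes matrix extracellular phosphoglycoprotein, a protein of osteocytes and odontoblasts that restrains mineralization. Its signal was 273 ± 27.7 in tooth and 89.4 ± 10.4 in skin, both well above background. The difference was -0.98 with a software error of 0.22, which is 1.97-fold and so just short of the 2-fold threshold. In probes of similar brightness, between 200 and 400 in tooth and between 50 and 100 in skin, repeated spots gave a difference an SD of 0.20, so that spot error alone spans the threshold. With a median shift, quantile normalization or spike-in scaling Mepe passed 2-fold, at -1.23, -1.05 and -1.60. Its rank toward tooth was 1878 of 14519. Negative-control spots reached a median of 4.53 and a maximum of 17.8 in tooth, and a median of 4.93 and a maximum of 27.0 in skin. In skin 1 of them was itself called well above background. The skin signal of Mepe lay above all 308 of these spots, as did both skin signals of Ibsp, whereas that of Spp1 lay below the maximum.

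**Figure D2:**
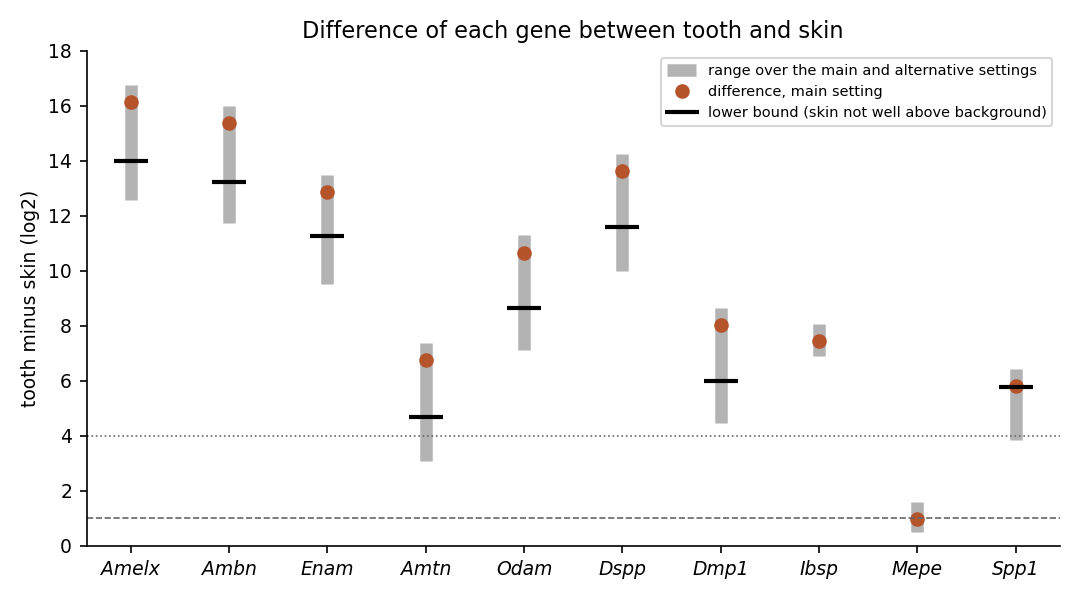
Difference of each gene, tooth minus skin (log2, so that higher is higher in tooth). Points are the main setting, black bars the lower bound where skin was not well above background, and grey bars the range over the main and the alternative settings, with dashed and dotted lines at 2-fold and 16-fold. Mepe alone lies at the 2-fold line, and the grey bars of Amtn and Spp1 reach below the 16-fold line.

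The members on chromosome 5 formed an enamel cluster, with Odam, Amtn, Ambn and Enam over 617 kb, and a dentin and bone cluster, with Dspp, Dmp1, Ibsp, Mepe and Spp1 over 261 kb. To see how far the difference extended, every named gene with a probe within 250 kb of the outermost member probes was read. In the enamel cluster 4 of 4 members were at least 16-fold higher in tooth. Of the 18 other genes there, 10 were well above background on neither array. Of the 8 measured, 2 were at least 2-fold higher in tooth, against 15.7% of all genes, and none was at least 16-fold higher. The casein genes Csn1s1, Csn2 and Csn1s2a were among those at background. The 2 were BC037156, named after its value was seen and listed in RefSeq also as FDC-SP, and Csn3, which encodes kappa-casein. BC037156, between the probes of Odam and Amtn, gave 205 in tooth and 12.1 in skin, at least 6.37-fold higher in tooth. Csn3 gave 255 in tooth and 34.2 in skin at its brightest probe, a difference of -2.27, while its other probes, read at 4.59 and 4.72 in tooth and at 10.6 and 5.17 in skin, were well above background on neither array. Utp3, a ribosome biogenesis gene beyond Enam, gave 5626 in tooth against 4101 in skin (0.18).

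In the dentin and bone cluster 4 of 5 members were at least 16-fold higher in tooth, Mepe being the exception between Ibsp and Spp1. All 6 other genes were well above background on both arrays. Of these, 4 exceeded 2-fold toward tooth, against 15.7% of all genes, and none reached 16-fold. The nearest on one side was Sparcl1, from which the family is thought to derive, which gave 22517 in tooth against 3357 in skin (-2.11). On the other side Pkd2, a calcium channel gene, gave 1387 and 432 (-1.05).

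**Figure D3:**
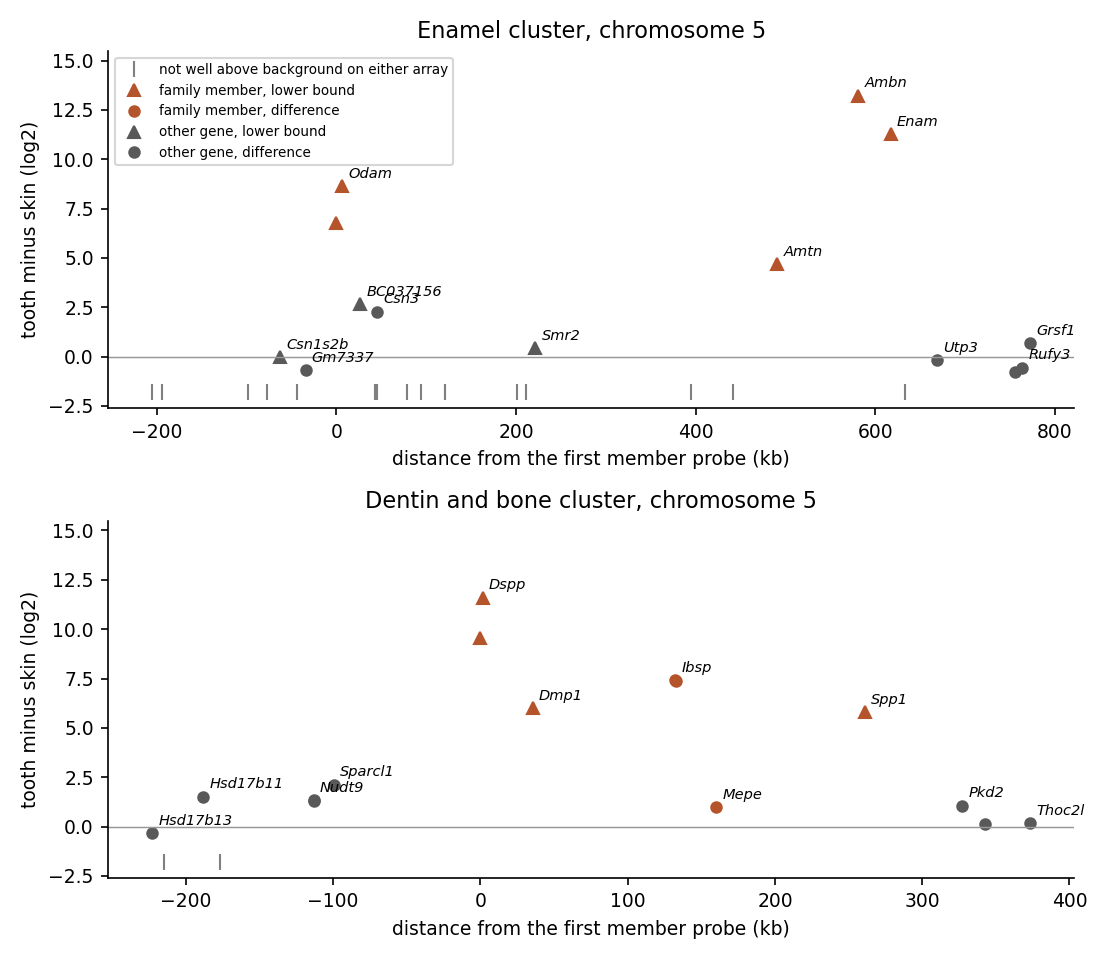
Difference of every named gene near the members on chromosome 5, tooth minus skin (log2), against the distance from the member probe with the lowest coordinate (kb). Triangles are lower bounds, circles differences measured on both arrays, and ticks at the bottom probes well above background on neither array. Every member but Mepe lies at 4.69 or higher, and no other gene lies above 2.67.

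The sequence before the transcript start was read for the members because they differed in the same direction. RefSeq promoters of assembly GRCm38.p6 were found for 9 of the 10 genes, all but Dspp, in 11 windows since Dmp1 and Spp1 have a pair of starts each. The 100 bases before the start are printed below, 5′ to 3′ on the strand of the gene, with the start that holds motifs for Dmp1 and Spp1. Capitals mark CCAAT, the longer CCAATCA, the letters TTAAAT, the letters TATAAA and the palindrome TTTAAA, each on either strand, so that a reverse complement such as ATTGG for the first or TTTATA for TATAAA is in capitals too. The CCAAT box, which CCAATCA contains, is the letters bound by the factor NF-Y. TATAAA is the core of the TATA box, from which transcription starts are placed, and TTAAAT and TTTAAA resemble it.
Amelx: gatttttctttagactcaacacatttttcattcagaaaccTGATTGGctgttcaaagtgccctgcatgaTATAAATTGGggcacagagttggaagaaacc
Ambn: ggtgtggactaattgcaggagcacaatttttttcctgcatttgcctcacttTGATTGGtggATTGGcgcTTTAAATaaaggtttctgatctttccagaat
Enam: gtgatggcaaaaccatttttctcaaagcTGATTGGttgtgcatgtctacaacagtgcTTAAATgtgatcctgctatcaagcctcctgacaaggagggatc
Amtn: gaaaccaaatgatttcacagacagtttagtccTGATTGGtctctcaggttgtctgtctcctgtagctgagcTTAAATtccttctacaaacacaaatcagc
Odam: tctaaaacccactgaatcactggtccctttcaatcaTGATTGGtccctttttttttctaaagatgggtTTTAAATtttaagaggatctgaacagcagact
Dmp1: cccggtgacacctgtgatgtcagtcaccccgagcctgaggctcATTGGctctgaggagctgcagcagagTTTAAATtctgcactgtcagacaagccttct
Ibsp: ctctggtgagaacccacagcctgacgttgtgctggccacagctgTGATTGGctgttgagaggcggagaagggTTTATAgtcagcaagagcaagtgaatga
Mepe: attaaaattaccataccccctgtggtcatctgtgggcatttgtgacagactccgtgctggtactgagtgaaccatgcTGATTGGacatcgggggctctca
Spp1: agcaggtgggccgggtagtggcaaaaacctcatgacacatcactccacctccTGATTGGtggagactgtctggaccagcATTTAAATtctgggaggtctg

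In the build named, these windows are chrX:169187210-169187309 (minus strand) for Amelx, chr5:88455891-88455990 for Ambn, chr5:88487875-88487974 for Enam, chr5:88376008-88376107 for Amtn, chr5:87884910-87885009 for Odam, chr5:104202517-104202616 for Dmp1, chr5:104299187-104299286 for Ibsp, chr5:104325229-104325328 for Mepe and chr5:104435011-104435110 for Spp1. A gene was counted when any of its windows held the letters. The 5 letters CCAAT, on either strand, occurred in 9 of 9 members, against 21.6% of the 27025 genes with a promoter. The longer CCAATCA, which contains them, occurred in 8 of 9, all but Dmp1, against 5.44%, and in each of the 8 it was written as TGATTGG on the strand of the gene. Its first base lay at positions from -72 to -23, counted from the start. TTAAAT, on either strand, occurred in 6 of 9, against 5.23%, and its first base lay at positions from -43 to -19. TATAAA, on either strand, occurred in Amelx and Ibsp, against 6.57%, and TTTAAA, which can overlap TTAAAT, in 4 of 9, against 5.12%. CCAATCA and TTAAAT occurred together in Ambn, Enam, Amtn, Odam and Spp1, which were 5 of the 43 genes with both among all promoters (0.159%). In these the distance from the first base of TGATTGG to that of TTAAAT was 19 bases in Ambn, 29 in Enam, 39 in Amtn, 33 in Odam and 29 in Spp1. TGTGGT, the core letters of a Runx site, occurred in 1 of 9, Mepe, against 6.55%. In the 250 bases before the start, also searched, CCAATCA occurred in 9 of 9 members, against 8.38% of all genes. There TTAAAT occurred in 7 of 9, all but Amelx and Mepe, against 13.9%. TATAAA occurred in 5 of 9, Mepe among them, against 14.3%, and TGTGGT in 4 of 9, against 15.9%.

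The motifs other than the Runx core were chosen after these windows had been read, so the shares are a description, and a match is not a site shown to be used. Among the relatives outside the 10, 9 had a promoter. In the 100 bases CCAATCA occurred in none of them, against 5.44% of all genes with a promoter. CCAAT occurred in 3 of the 9, against 21.6%, and TTAAAT in 3, against 5.23%. Mepe held TGATTGG at -23, without TTAAAT or TATAAA in these 100 bases, and Amelx and Ibsp lacked TTAAAT as well. Whether the letters bear on any difference was not tested.

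**Figure D4:**
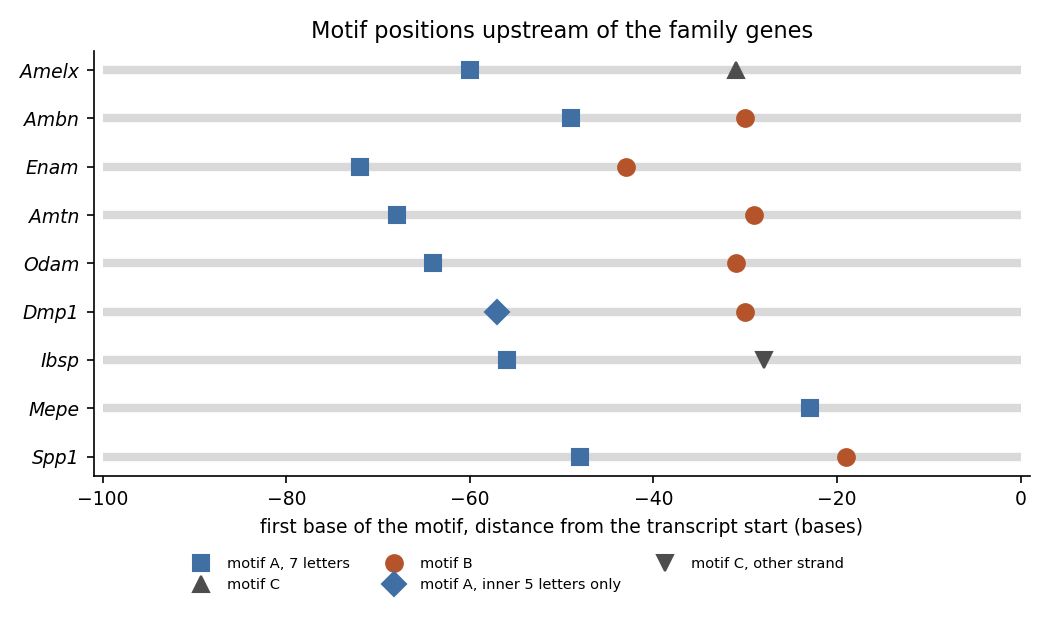
Position of the first base of each motif in the 100 bases before the transcript start of 9 genes (bases, start at 0). Motif A is CCAATCA with its inner CCAAT, here all on the reverse strand, motif B is TTAAAT, and motif C is TATAAA. The symbol of motif A, the 7 letters or in Dmp1 the inner 5, lies upstream of that of motif B or C in every gene but Mepe, which has neither B nor C. Further copies of the inner 5 letters in Amelx and Ambn are not drawn.

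The proteins that cut and phosphorylate the family were read next, as a list of 12 genes. Of these, 7 were at least 2-fold higher in tooth and 2 at least 2-fold higher in skin, against 15.7% and 14.1% of all genes. The median difference was -3.29 against -0.05 for all genes, but 4 of the 12 were not well above background in skin. With these at their bound the median was -2.37, with normexp -1.89, with the mean of probes -2.30, and -0.23 when genes dim on either array were dropped. Mmp20, the protease of secretory enamel, gave 3354 in tooth and 4.94 in skin, at least 104-fold higher in tooth. Phex, an endopeptidase of odontoblasts and osteoblasts whose loss lets fragments of the family accumulate, gave 3555 and 6.86, at least 110-fold higher. Klk4, the protease of maturing enamel, was measured on both arrays at 4512 and 48.1, a difference of -5.92. Fam20c, the Golgi kinase that phosphorylates the family, gave 3661 and 211, a difference of -3.49. Bmp1, which cleaves the precursors of Dspp and Dmp1, gave 10346 and 4957 at its brightest probe, a difference of -0.43, while 1 of its other probes passed 2-fold toward tooth. The 2 higher in skin were Ctsc, a lysosomal peptidase, with 565 in tooth and 1767 in skin (2.28), and Fam83h, mutated in an inherited enamel defect, with 5242 and 11157 (1.72). Klk4, Fam20c and Bmp1 were named for their role with their values known.

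Of 17 transcription regulators of enamel and dentin genes, 8 were at least 2-fold higher in tooth, against 15.7% of all genes, and 3 in skin, against 14.1%, with a median of -0.97. Sp7, the osteoblast factor osterix, gave 538 and 23.8 so that tooth was higher by at least 14.6-fold. Cebpa and Cebpb, of the C/EBP family that includes an activator of the amelogenin promoter, were higher in skin by 4.66 and 2.31. Of 13 genes of mineralization, 12 were above background, 7 at least 2-fold higher in tooth and none in skin, with a median of -1.87. Bglap, for osteocalcin, differed by -7.96 at its brightest probe and by -3.91 at its other probe. Alpl, for the phosphatase that frees phosphate for mineral, differed by -7.04. Of 14 receptors and binding partners 6 were at least 2-fold higher in tooth and none in skin, with a median of -0.83. Itgb3, a subunit of the integrin receptor of osteopontin and bone sialoprotein, differed by -2.50. Cd44, another receptor of osteopontin, differed by 0.61 toward skin, and by spike-in scaling this direction turned.

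Relatives outside the 10 were 13 names for 12 genes, of which 11 had a probe and 5 were well above background. Of these, 3 were at least 2-fold higher in tooth, against 15.7% of all genes, namely Csn3 (-2.27), Sparcl1 (-2.11) and Sparc (-1.50). Sparc, osteonectin, is the older gene from which Sparcl1 arose, and it was bright on both arrays with 384891 in tooth and 87999 in skin. The median of the 5 was -1.50, but with all probes of a gene averaged it turned to 0.11. Among the 5, Csn1s2b and Smr2 were well above background in tooth only and so entered through tooth. Without the filter on dim probes, over all 11, the median was -0.32.

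**Figure D5:**
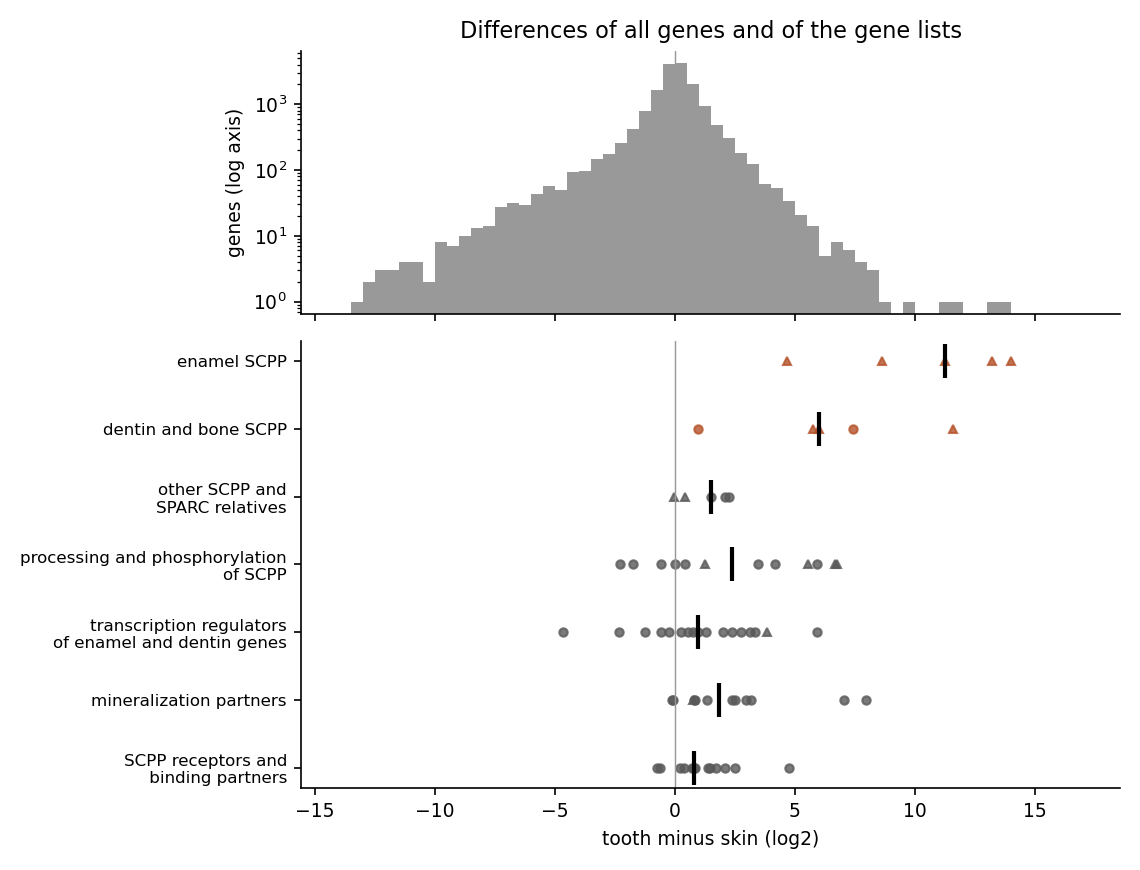
Differences of all 16440 genes as a histogram (top, number of genes on a log axis) and of the genes of each list (bottom), tooth minus skin (log2). Points are genes well above background on at least 1 array and bars are list medians. Where 1 array was not well above background the bound is plotted, as a triangle in the lists. As skin minus tooth, the median at the bounds is -11.27 for the enamel list and -6.00 for the dentin and bone list, and the other lists lie from -2.37 to -0.83.

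The labels of both arrays were checked against markers of the cells they could hold. Some markers, among them Mmp20, Klk4, Phex, Sp7, Bglap, Alpl and Csn3, were already read above, so the check is not independent of those lists. Summed signal is given relative to the 75th percentile of each array. Of all genes 15.7% were at least 2-fold higher in tooth, or 13.7% with dim values at their bound, and 14.1% in skin. Of 4 ameloblast markers 3 were at least 2-fold higher in tooth, with a sum of 42.9 in tooth and 0.67 in skin, and Mmp20 was not well above background in skin. Of 5 odontoblast or osteoblast markers all were at least 2-fold higher in tooth, with sums of 562 and 52.0, and Sp7 and Phex were not well above background in skin. Markers of osteoclasts, which resorb bone and also make osteopontin, were read too. Of 6 such markers 5 were at least 2-fold higher in tooth, with sums of 302 and 18.2. In skin Mmp9 and Calcr were not well above background, with a bound of 1.78-fold for Calcr. Of 5 macrophage markers 2 were at least 2-fold higher in tooth, with sums of 27.2 and 18.1. Of 5 cartilage markers 2 were at least 2-fold higher in tooth and none in skin, with sums of 7.03 and 4.67. Col2a1 gave 1395 in tooth and 20.0 in skin, at least 43.3-fold higher in tooth, while Sox9 gave 1408 and 1197. Col10a1 was at background on both arrays. In the other direction 5 of 6 epidermal markers (sums of 528 and 4783), 4 of 4 hair follicle markers (2.42 and 642), 5 of 5 muscle markers (8.25 and 80.6) and 5 of 5 fat markers (1.52 and 17.9) were at least 2-fold higher in skin. Myog of muscle and Adipoq, Plin1 and Cfd of fat were not well above background in tooth. Of the 4 secretory gland markers 2 were at least 2-fold higher in tooth and 1 in skin, with sums of 1.20 and 0.93. How much of the difference of Spp1, Ibsp or Mepe comes with any of these cells was not tested.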

How the data were processed

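RNA from tooth and from skin of wild-type mice, 1 sample of each (number of animals and teeth not stated), was hybridised in 1 colour (Cy3) to arrays of 62976 spots on the same slide. Per the file headers, the deposited intensity values came from Agilent Feature Extraction 10.7.3.1, which subtracted background, detrended each array and wrote surrogates for dim spots. The authors also deposited a ratio per spot, the processed intensity over a constant (431 in tooth, 275 in skin), and the yes-or-no spot calls. Its scale was linear, its medians were 0.081 and 0.099, and no centring was found.

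Outlier spots were dropped, spots of a probe averaged on the log2 scale and each array's 75th percentile over 55675 probes subtracted. The deposited signals on this log2 scale gave every difference. A probe was above background when over 50% of its spots were called so. The brightest probe stood for a gene in counts. Names came from RefSeq (31399 of 55681 probes). The members are named with every probe, and of the lists, genes that a result turns on and the 2 largest differences each way, except some that are not reported here. Members, lists and thresholds were chosen with earlier results of these data known. Python 3.11.15 and limma 3.58.1 were used, and the scaling was tested on simulated data. The number of arrays limits the precision.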

Additional observations from a re-analysis of the deposited data

Results flagged for a closer look

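Near the members, some probes for long non-coding regions, which enter no comparison above, carried signal. Of 32 such probes within 250 kb of the chromosome 5 clusters, 12 were well above background in tooth, against 56.7% of all probes. In skin 9 of the 32 were, against 52.5%. The brightest, at mm9 chr5:89002201-89002260 on the minus strand and beyond Enam, gave 2651 in tooth and 2951 in skin, against at most 17.8 and 27.0 in negative-control spots. The 4 other probes of the same region and strand lay between 7.59 and 160 in tooth and between 7.05 and 67.7 in skin. No explanation was tested.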

How the results depend on the processing

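All 10 members stayed higher in tooth under each of the 10 alternatives that gave them a value. The median difference of the members, -9.34, became -7.02 with normexp background correction, -9.58 with a median shift, -9.71 with quantile normalization, -9.96 with spike-in scaling, -8.04 with dim values at their bound and -8.91 with the mean of a gene's probes. With only genes measured on both arrays it was -4.20, from Ibsp and Mepe alone, and the counts at 2-fold and at 16-fold both fell from 9 to 1, since 8 members are not well above background in skin. Mepe passed 2-fold with a median shift (-1.23), quantile normalization (-1.05) and spike-in scaling (-1.60), which brought that count to 10, and was -0.51 with normexp. Normexp also took Amtn (-3.07) and Spp1 (-3.85) under 16-fold, leaving 7, and compresses dim values by its added offset of 50. Scaling moved all genes together, with a median of -0.30 under the median shift and -0.68 under spike-in scaling against -0.05. Of the list medians, that of the relatives alone turned, to 0.11 with the mean of probes. No paired analysis was possible because each tissue has 1 array. Skin bounds are limited by the lowest signal above background, and dissection, RNA preparation and animals are in no error given. The bounds hold for the main setting. With normexp each of the 8 members with a bound differed by less than that bound, as did Amelx at -12.57.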

Other observations

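The letters shared by the members' promoters were also looked up in the other measured genes. Of 907 genes outside the family with CCAATCA in the 100 bases before the start, 125 (13.8%) were at least 2-fold higher in tooth, against 15.7% of all genes, and their median difference was -0.07. Of 398 such genes with TTAAAT, 75 (18.8%) were at least 2-fold higher in tooth, with a median of 0.05. Of 19 with both, 4 (21.1%) were at least 2-fold higher in tooth, with a median of -0.15. Of these 19 genes, 2 were at least 16-fold higher in tooth, against 1.41% of all genes. These are descriptions without a test.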
